A study of Arabidopsis thaliana with 10 samples.

Results

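Mitochondrion-encoded respiratory transcripts were followed across 3 genotypes of Arabidopsis thaliana seedlings, each with and without far-red light ahead of white light. The set comprised every probe set annotated to cox1, cox2, nad1, nad4, nad4L, nad6 or ccb382 and to no other gene. These 7 genes, of 13356 genes named by a probe set of 1 gene, were represented by 13 of the 22810 probe sets on the ATH1 array, a single-colour Affymetrix oligonucleotide array. nad1 had 7 of the 13 probe sets and each other gene had 1. The set holds subunits of 2 respiratory complexes and 1 protein of cytochrome c assembly, so the label of respiratory genes fits the annotation.

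Plant mitochondria keep a small genome that encodes core subunits of the respiratory chain, while most subunits of the same complexes are encoded in the nucleus and imported. The cox genes encode the catalytic core of cytochrome c oxidase (complex IV), which passes electrons from cytochrome c to oxygen. The nad genes encode membrane subunits of NADH dehydrogenase (complex I), where electrons from NADH enter the chain. ccb382, also called ccmFN1, acts in attaching heme to c-type cytochromes in the mitochondrion. In young seedlings respiration supplies energy from stored reserves while chloroplasts form.

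Each sample was a pool of 300 whole young seedlings without true leaves, grown at 22 °C under continuous light. FR denotes seedlings with a far-red pretreatment, and D denotes seedlings moved to white light without far-red. The labels call these seedlings Dpretreated and do not spell out D. The groups were the phyA-null mutant after far-red (phyA_FR, 1 array) and without it (phyA_D, 1 array), the gun1gun5 double mutant after far-red (gun1gun5_FR, 2 arrays) and without it (gun1gun5_D, 2 arrays), and Col-0 wild type after far-red (WT_FR, 2 arrays) and without it (WT_D, 2 arrays). Phytochrome A is the photoreceptor for continuous far-red light, and GUN1 and GUN5 act in signalling between chloroplast and nucleus. The medium held no sucrose, except for both WT_D samples, whose labels list 1.5% sucrose. WT_D replicate 2 also carries 5 µM norflurazon, an inhibitor of carotenoid synthesis, in its label. In comparisons with WT_D the medium therefore cannot be told apart from the light treatment or the genotype, whereas the other comparisons were between sucrose-free media. PHYA, GUN1 and GUN5 were not analysed here, so the mutations were not checked on these arrays.

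Values are the deposited intensities, scaled so that the mean of each array without its lowest and highest 2% was about 100. Nothing in the labels says that replicates were grown separately, so a p-value here reflects only how far these arrays spread, which may be technical variation. The number of arrays limits the precision. In such pools a lower share of cells and less RNA per cell cannot be told apart. RNA was copied with an oligo(dT) primer, and plant mitochondrial messengers mostly lack stable poly(A) tails, so these intensities describe the primed fraction; the part of this step in any difference was not tested. The Columbia nucleus also carries a large copy of the mitochondrial genome, and nad6 was read by a probe set of the kind shared by several transcripts, so signal from nuclear copies cannot be told apart from that of the mitochondrion. The 25S rRNA control of the arrays ranged 9.54-fold, between 315 and 3004. The ratio of 3′ to 5′ signal of the control transcripts, a measure of RNA integrity and labelling, was 1.94 for phyA_FR and 1.82 for phyA_D, against 1.36 to 1.56 on the 8 other arrays. Of 11 markers of photosynthetic cells 3 had a named probe set (LHCB4.1, LHCB4.2 and RCA), and all 3 were bright on every array. Root markers had 2 of 8 (PYK10 and EXPA7) and seed reserve markers 1 of 9 (OLEO4, 6.7 to 33.0).

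cox2, which encodes the copper-binding subunit of complex IV that accepts electrons from cytochrome c, had the widest range of the tested members. It read 45.4 for phyA_FR and 44.8 for phyA_D, 46.8 and 42.9 for gun1gun5_FR, 63.2 and 61.1 for gun1gun5_D, 283 and 265 for WT_FR, and 113 and 67.6 for WT_D. Both WT_FR arrays stood above all others, both WT_D arrays came next, and phyA_FR fell between the gun1gun5_FR arrays. cox1, the subunit with the oxygen-reducing centre, read 123 for phyA_FR and 90.2 for phyA_D, 97.2 and 117 for gun1gun5_FR, 92.8 and 91.9 for gun1gun5_D, 238 and 206 for WT_FR, and 113 and 84.9 for WT_D. Again only the WT_FR arrays lay apart, and the values of the other 5 groups ran into each other.

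nad6 encodes a membrane subunit of complex I. It read 34.2 for phyA_FR and 28.9 for phyA_D, 30.5 and 27.0 for gun1gun5_FR, 26.7 and 29.9 for gun1gun5_D, 103 and 82.0 for WT_FR, and 33.2 and 26.8 for WT_D. The WT_FR arrays were the only ones above 34.2. nad4, a membrane subunit from the proton-pumping arm, had another order, with 505 for phyA_FR and 383 for phyA_D, 326 and 397 for gun1gun5_FR, 269 and 293 for gun1gun5_D, 286 and 305 for WT_FR, and 229 and 256 for WT_D. Here phyA_FR was the highest array and both WT_D arrays were the lowest, with WT_FR between them. nad4L, a small neighbour of these subunits, read 45.6 for phyA_FR and 40.2 for phyA_D, 39 and 57.2 for gun1gun5_FR, 46.0 and 54.6 for gun1gun5_D, 65.6 and 69.8 for WT_FR, and 49.2 and 38.7 for WT_D. Its WT_FR arrays were highest and the other groups overlapped.

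ccb382, from the heme-attachment pathway, read 172 for phyA_FR and 153 for phyA_D, 196 and 221 for gun1gun5_FR, 193 and 168 for gun1gun5_D, 227 and 267 for WT_FR, and 208 and 211 for WT_D. WT_FR was again highest, phyA_D was lowest, and the whole range spanned only 1.75-fold, against 6.60-fold for cox2 and 3.85-fold for nad6.

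**Figure D1:**
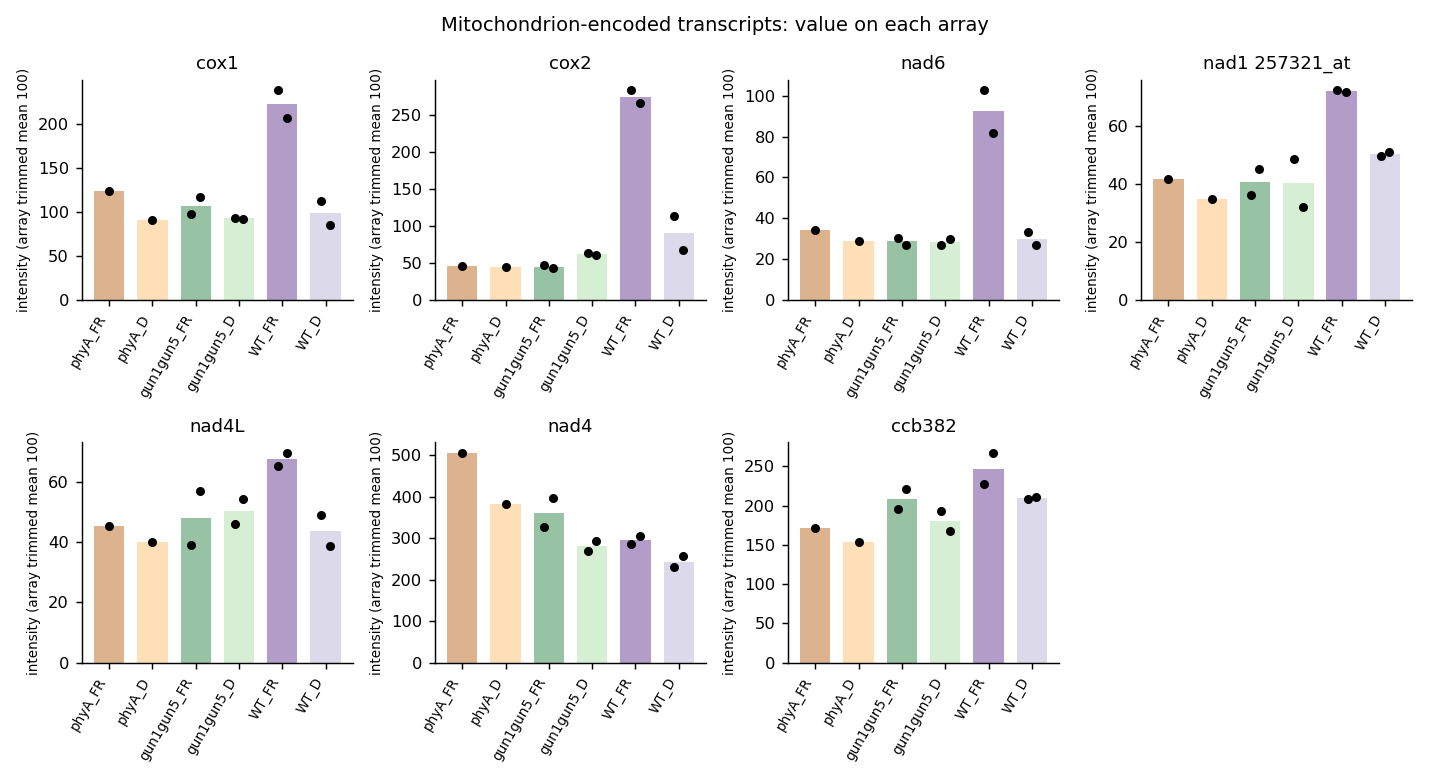
Intensity of 7 mitochondrion-encoded probe sets in each group, with every array as a point and the group mean as a bar; phyA groups hold 1 array each and the others 2. The WT_FR points stand above all others for cox1, cox2, nad6, nad1 257321_at, nad4L and ccb382, whereas phyA_FR is highest for nad4. For nad1 only the set that passed in a comparison is drawn. Its other tested sets, 257322_at, 257323_at, 257324_at and 257325_at, do not set WT_FR apart.

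nad1, another membrane subunit of complex I whose messenger is assembled from separately transcribed pieces, gave probe sets with more than one pattern. The set 257321_at read 41.9 for phyA_FR and 34.7 for phyA_D, 36.1 and 45.3 for gun1gun5_FR, 48.8 and 32.2 for gun1gun5_D, 72.5 and 71.9 for WT_FR, and 49.9 and 51.0 for WT_D. Its WT_FR arrays were highest, as for nad6. The sets 257322_at, 257323_at, 257324_at and 257325_at lay between 39.6 and 56.4, 24.9 and 42.8, 32.7 and 59.4, and 21.0 and 39.9 over the 10 arrays, and in none did both WT_FR arrays exceed all others. Among these, 257322_at and 257324_at had a Pearson correlation of 0.88 over the 10 arrays and 0.93 without WT_FR (n = 8). Of the remaining sets, 257327_at stayed under 16 on all 10 arrays (2.7 to 15.8) and 257329_at lay between 8.5 and 41.9. These last sets fell below the filter for low values, a mean log2(value + 16) of 5.35, which left 11 of the 13 probe sets for testing. Each of the 11 also passed that filter with any 1 group left out of the mean.

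Far-red light was followed by higher levels of 3 mitochondrial transcripts in wild type. cox2 averaged 274 ± 12.7 in WT_FR and 90.4 ± 32.2 in WT_D, cox1 222 ± 22.6 in WT_FR and 98.8 ± 19.7 in WT_D, and nad6 92.4 ± 14.7 in WT_FR and 30.0 ± 4.53 in WT_D (SD, n = 2 each). On the log2(value + 16) scale the differences were 1.48 ± 0.18 for cox2 (SE, adjusted p = 0.000401), 1.06 ± 0.15 for cox1 (adjusted p = 0.000973) and 1.23 ± 0.15 for nad6 (adjusted p = 0.000346). The test was limma's moderated test over all 13647 probe sets that passed the filter, with Benjamini-Hochberg adjustment and a threshold of 0.05. The other complex I members and ccb382 did not pass, with 0.49 ± 0.16 for nad4L (adjusted p = 0.0562), 0.41 ± 0.16 for nad1 257321_at (adjusted p = 0.0914), 0.27 ± 0.13 for nad4 (adjusted p = 0.183) and 0.22 ± 0.14 for ccb382 (adjusted p = 0.282). In all, 3 of 11 members were higher and 0 lower, where 9.72% of all tested probe sets were higher and 12.6% lower. The median difference was 0.27 over the members and -0.01 over all tested probe sets. cox1, cox2 and nad6 stayed under the threshold in each fit that left out 1 array, also without the WT_D array labelled with norflurazon.

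The summed level of the 3 photosynthetic markers was 5972 to 6441 in WT_FR and 7736 to 8276 in WT_D. Among them LHCB4.2, a chlorophyll-binding antenna protein, fell by 1.26 on the log2 scale (limma, adjusted p = 0.000117), and the other 2 did not pass the test. Both WT_D arrays are labelled with sucrose, so leaving out the one labelled with norflurazon does not separate the medium from far-red. The part of the cell makeup and of the medium in the mitochondrial differences was not tested.

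In the mutants no member passed in the same comparison. For gun1gun5_FR against gun1gun5_D limma called 0 of 11 members, 1 at an unadjusted p under 0.05 (nad4, 0.34 ± 0.13, adjusted p = 0.119), while 6.38% of all probe sets were higher and 8.06% lower. cox2 differed by -0.36 ± 0.18 (adjusted p = 0.209), with both gun1gun5_FR arrays below both gun1gun5_D arrays, and nad6 by 0.01 ± 0.15, with overlapping arrays. The median over the members was 0.18, against -0.00467 over all tested probe sets. For phyA_FR against phyA_D, where each group is 1 array assumed to vary like the others, limma called 0 of 11 members and 0% of all probe sets (0 members and 699 probe sets at an unadjusted p under 0.05). The 11 phyA differences lay between 0.01 for cox2 (below 0 with quantile normalization) and 0.39 for cox1. Their median was 0.15, against 0.01 over all tested probe sets. The 95% interval for cox2 in phyA ran from -0.55 to 0.58, below the 1.08 to 1.88 of wild type.

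The difference between genotypes in the far-red effect was itself tested as an interaction. The cox2 effect was smaller in gun1gun5 than in wild type by 1.84 ± 0.25 log2 units (limma, adjusted p = 0.00481) and the nad6 effect by 1.22 ± 0.21 (adjusted p = 0.0125). The cox1 interaction, -0.88 ± 0.21, did not pass (adjusted p = 0.0581). These were 2 of 11 members on the lower side and 0 on the higher side, where 2.03% of all probe sets were lower and 0.791% higher. The median interaction was -0.15 over the members and 0.03 over all tested probe sets. The nad6 call was lost without gun1gun5_FR replicate 2 (-1.16, adjusted p = 0.0610). For phyA against wild type only cox2 passed, at -1.47 ± 0.31 (adjusted p = 0.0451), 1 of 11 members lower and 0 higher, with 0.689% of all probe sets lower and 1.13% higher. nad6 followed at -1.07 ± 0.25 (adjusted p = 0.0664). The cox2 call in phyA rested on small margins, with adjusted p between 0.0555 and 0.0885 without either WT_FR array, either gun1gun5_FR array or either gun1gun5_D array. All of these interactions involve WT_D and so its medium.

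**Figure D2:**
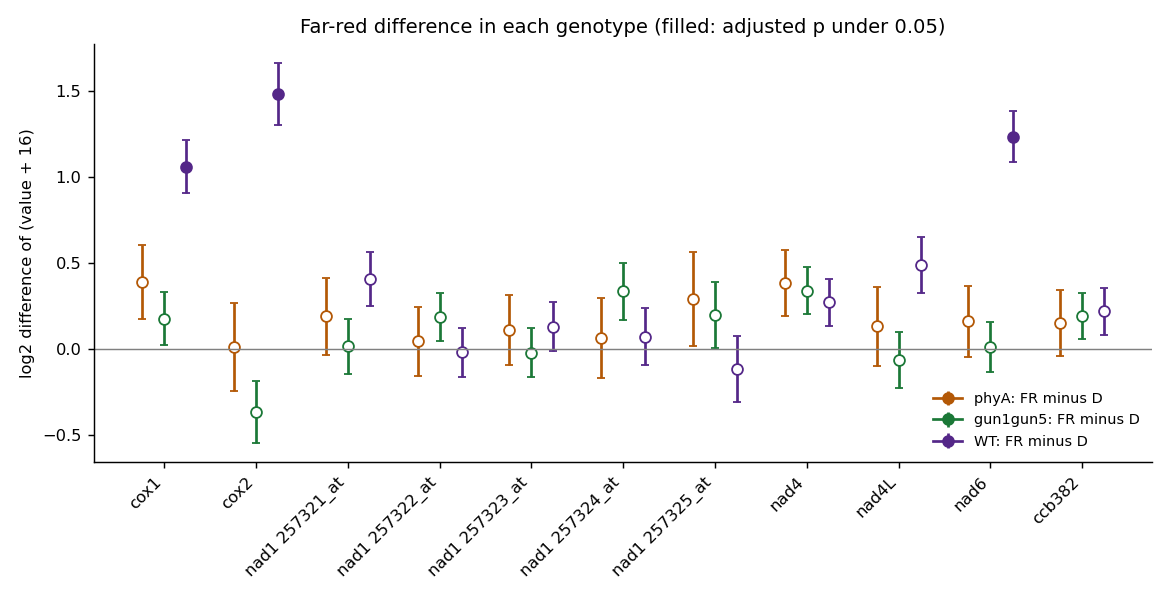
Log2 difference of (value + 16) between far-red and no far-red for the 11 tested probe sets in phyA, gun1gun5 and wild type; bars are standard errors of the limma fit and filled points have an adjusted p under 0.05. Only the wild-type points of cox1, cox2 and nad6 are filled, and they stand above 1.

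On the same sucrose-free medium after far-red, the mutants had lower cox2, cox1 and nad6 than wild type. cox2 averaged 44.9 ± 2.76 in gun1gun5_FR and 274 ± 12.7 in WT_FR, cox1 107 ± 13.8 in gun1gun5_FR and 222 ± 22.6 in WT_FR, and nad6 28.8 ± 2.47 in gun1gun5_FR and 92.4 ± 14.7 in WT_FR (SD, n = 2 each). The differences were -2.25 ± 0.18 for cox2 (limma, adjusted p = 3.49e-05), -0.95 ± 0.15 for cox1 (adjusted p = 0.00197) and -1.27 ± 0.15 for nad6 (adjusted p = 0.000307). For cox2 this is 4.77-fold lower with 16 added to both means, and 6.11-fold lower as a ratio of the mean intensities. nad1 257321_at was lower too, by -0.64 ± 0.16 (adjusted p = 0.0176). In total 4 of 11 members were lower and 0 higher, where 10.4% of all probe sets were lower and 9.8% higher. The median was -0.33 over the members and 0.03 over all tested probe sets. nad4L (-0.40 ± 0.16, adjusted p = 0.112), ccb382 (-0.23 ± 0.14) and nad4 (0.27 ± 0.13, adjusted p = 0.192) did not pass. Leaving out either WT_FR array or gun1gun5_FR replicate 1 took the nad1 call away (adjusted p from 0.0543 to 0.144), while cox1, cox2 and nad6 passed whichever array was left out. The summed photosynthetic markers were 6985 to 7169 in gun1gun5_FR and 5972 to 6441 in WT_FR, with LHCB4.2 higher by 0.40 (limma, adjusted p = 0.0412). That call was lost with quantile normalization, among other alternatives. The summed root markers, nearly all PYK10, were 2194 to 2368 in gun1gun5_FR and 2565 to 2709 in WT_FR, and limma called 0 of them. Their part in the result was not tested.

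The lone phyA_FR array gave lower values for the same 3 genes and a higher nad4. Against WT_FR the differences were -2.24 ± 0.22 for cox2 (limma, adjusted p = 0.000246), -1.10 ± 0.18 for nad6 (adjusted p = 0.00331), -0.77 ± 0.19 for cox1 (adjusted p = 0.0224) and 0.74 ± 0.17 for nad4 (adjusted p = 0.0157). That made 3 of 11 members lower and 1 higher, where 5.65% of all probe sets were lower and 6.97% higher. The median was -0.44 over the members and 0.02 over all tested probe sets. nad1 257321_at (-0.61 ± 0.19, adjusted p = 0.0681) and ccb382 (-0.48 ± 0.17, adjusted p = 0.0860) did not pass. With the 3′ to 5′ ratio of each array as a covariate none of the 4 passed, the estimates being -1.48 for cox2 (adjusted p = 0.188), -0.48 for nad6 (adjusted p = 0.585), -0.18 for cox1 (adjusted p = 0.876) and 0.39 for nad4 (adjusted p = 0.675). Calls outside the set, those of LHCB4.2, AT5G25450 and AT5G51440, were lost with that covariate too, so the loss was not particular to the members. The share of all probe sets called with it is not given here. The cox2 interaction of phyA was -1.38 with it and -1.47 without. The phyA arrays are those with the highest ratio, 1.94 and 1.82. With 1 array for each phyA group, the part of this property in the result was not separable from the genotype. Without WT_FR replicate 1 the cox1 and nad4 calls were lost (adjusted p = 0.0812 and 0.0521). The summed photosynthetic markers were 9076 in phyA_FR and 5972 to 6441 in WT_FR, with all 3 higher in phyA_FR, and their part in the result was not tested.

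Both comparisons share the WT_FR arrays. Set directly against each other, phyA_FR and gun1gun5_FR did not differ in cox2 beyond the spread (0.01 ± 0.22, 95% interval -0.48 to 0.50) nor in nad6 (0.17 ± 0.18, 95% interval -0.23 to 0.56). limma called 0 of 11 members there (1 at an unadjusted p under 0.05), against 8.77% of all probe sets higher and 7.33% lower. nad4 came closest, at 0.47 ± 0.17 (adjusted p = 0.0776), with phyA_FR above both gun1gun5_FR arrays.

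Without far-red the mutants differed less from wild type in cox2, cox1 and nad6 than after it. For nad4 the phyA difference was 0.63, against 0.74 after far-red. Of the groups without far-red, only WT_D has sucrose in its labels. gun1gun5_D against WT_D gave 0 of 11 members by limma (1 at an unadjusted p under 0.05), with 4.06% of all probe sets higher and 5.14% lower; cox2 differed by -0.41 ± 0.18 (adjusted p = 0.181) and nad6 by -0.05 ± 0.15. phyA_D against WT_D gave 0 of 11 (3 at an unadjusted p under 0.05) and 0.0586% of all probe sets in either direction, with cox2 at -0.77 ± 0.22 (adjusted p = 0.382) and nad4 at 0.63 ± 0.17 (adjusted p = 0.327). Without WT_D replicate 2, the sample labelled with norflurazon, cox2 passed in both comparisons, at -0.73 for gun1gun5_D (adjusted p = 0.0286) and -1.09 for phyA_D (adjusted p = 0.0487). phyA_D against gun1gun5_D, both without sucrose, gave 0 of 11 by limma (1 at an unadjusted p under 0.05), with 2.08% of all probe sets higher and 1.34% lower. In that comparison nad4 stood at 0.43 ± 0.17 (limma, adjusted p = 0.160). There cox2 stood at -0.36, against 0.01 between phyA_FR and gun1gun5_FR.

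**Figure D3:**
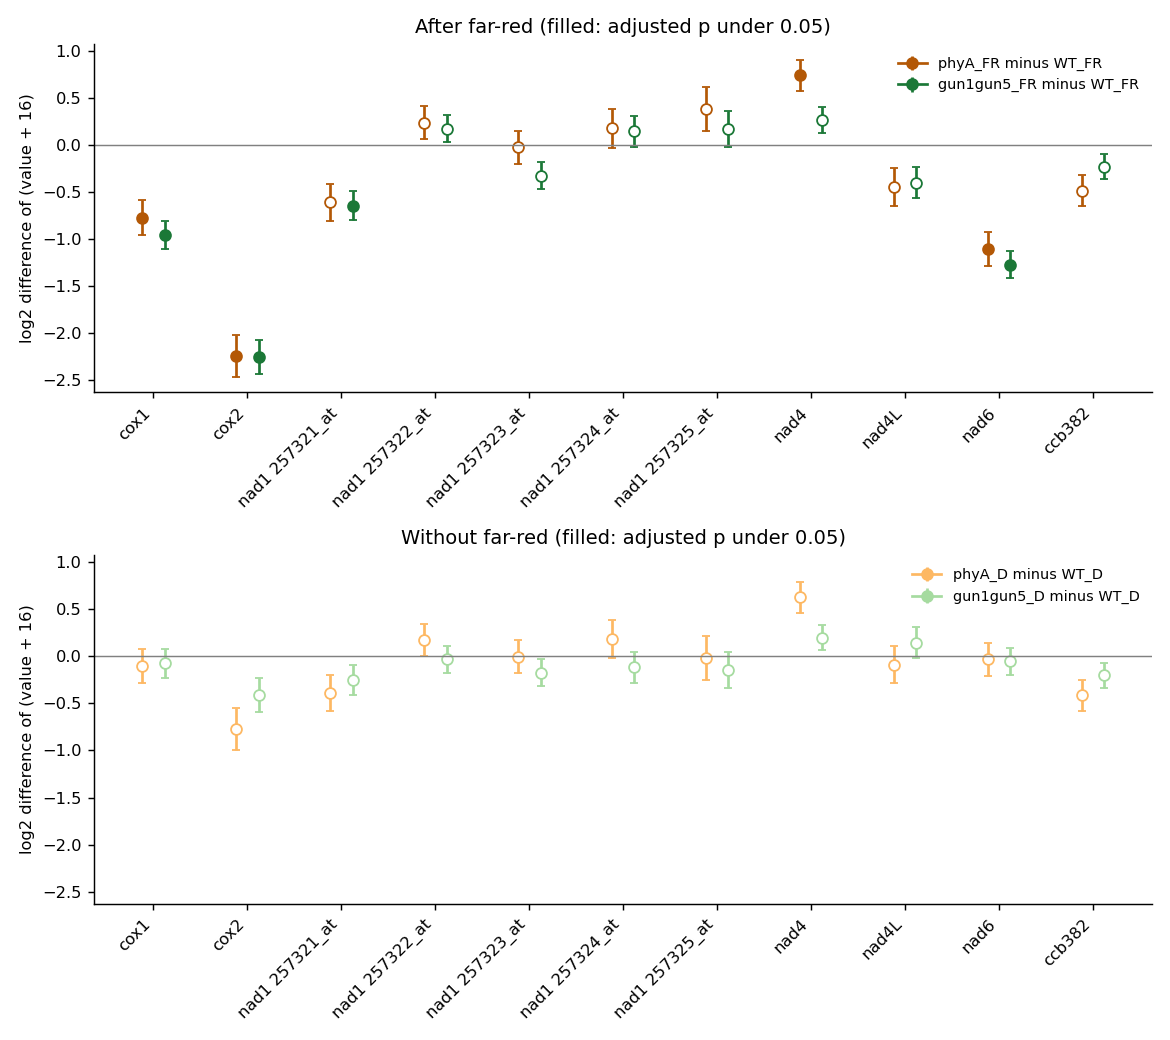
Log2 difference of (value + 16) from wild type for phyA and gun1gun5, after far-red (upper panel) and without it (lower panel); bars are standard errors of the limma fit and filled points have an adjusted p under 0.05. After far-red cox2, nad6 and cox1 are filled below 0 in both mutants, nad1 257321_at also in gun1gun5, and nad4 is filled above 0 in phyA; without far-red no point is filled.

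The members were set against the 25S rRNA control of each array, which reads how much ribosomal RNA entered the labelling. The control read 2090.2 for phyA_FR and 2445 for phyA_D, 904 and 1791 for gun1gun5_FR, 377 and 3004 for gun1gun5_D, 494 and 2368 for WT_FR, and 776 and 315 for WT_D. The WT_FR pair and the gun1gun5_D pair each spanned most of this range, while both WT_D arrays lay below the gun1gun5_FR arrays and these below the phyA arrays. Between the WT_FR arrays, replicate 2 minus replicate 1, the control differed by 2.22 log2 units. The 11 members differed there by -0.28 to 0.30 (median 0.07). Between the gun1gun5_D replicates the control differed by 2.94, and the members by -0.43 to 0.19 (median 0.10). In gun1gun5_FR the control differed by 0.97, and the members by -0.11 to 0.44 (median 0.21). In WT_D the control differed by -1.26, and the members by -0.63 to 0.15 (median -0.20). These replicate gaps were not summarised over all tested probe sets.

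Fitted within groups, the slope of log2(value + 16) on the log2 control lay between -0.07 and 0.09 over the members. limma called 0 of 11 slopes and 0% of all probe sets (0 members and 995 probe sets at an unadjusted p under 0.05). With the control as a covariate the far-red difference of wild type was 1.45 for cox2 (limma, adjusted p = 0.00144), 1.05 for cox1 (adjusted p = 0.00291) and 1.25 for nad6 (adjusted p = 0.00113), close to the values without it. The gun1gun5_FR difference from WT_FR was likewise -2.26 for cox2 (adjusted p = 0.000108), -0.96 for cox1 and -1.27 for nad6. The phyA interaction of cox2 was lost with this covariate (-1.43, adjusted p = 0.0703).

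**Figure D4:**
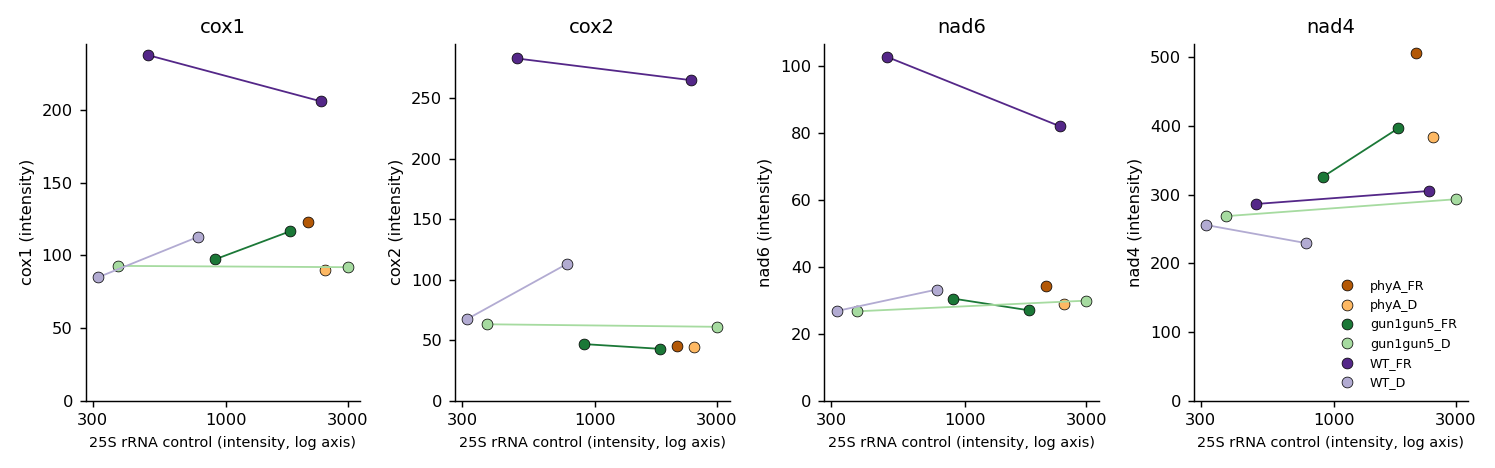
Intensity of cox1, cox2, nad6 and nad4 against the 25S rRNA control of the same array (log axis); lines join replicates of a group. The WT_FR pair stands apart for cox1, cox2 and nad6 although its controls, 494 and 2368, span most of the range.

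Likeness among the members was compared with and without the WT_FR arrays. For cox1, cox2 and nad6 it rested largely on those arrays. Over the 10 arrays the log2 values of cox1 and cox2 had a Pearson correlation of 0.87, and without the 2 WT_FR arrays of -0.04 (n = 8). nad6 and cox1 had 0.96 with and 0.59 without WT_FR, and nad6 and cox2 0.93 with and 0.22 without. Some pairs with other members fell likewise, such as nad6 and nad1 257321_at (0.81 with, -0.20 without) and nad4L and cox2 (0.75 with, 0.10 without). Not every pair did so. nad4 ran against cox2, at -0.45 over all arrays and -0.82 without WT_FR. nad4 and nad1 257322_at had 0.71 with and without WT_FR, and ccb382 and nad1 257321_at 0.85 with and 0.74 without. cox1 and nad1 257325_at had -0.03 over all arrays and 0.85 without WT_FR. These coefficients describe arrays that share groups and carry no test.

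Other mitochondrial genes outside the set had 10 probe sets of 1 gene, 5 of which passed the filter (nad5 257338_s_at, nad9, ccb206, ccb452 and orfX). limma called 0 of the 5 in each of the 11 comparisons of groups, with 8 of the 55 tests at an unadjusted p under 0.05. Over all 13647 tested probe sets, limma called 0 to 3053 in a comparison, and 699 to 4759 had an unadjusted p under 0.05. nad5, a complex I subunit beside nad4, read 64 for phyA_FR and 44.2 for phyA_D, 34.9 and 51.9 for gun1gun5_FR, 49.5 and 51.5 for gun1gun5_D, 55.1 and 54.7 for WT_FR, and 43.4 and 29.0 for WT_D. Its WT_FR arrays did not stand apart, and WT_FR minus WT_D was 0.46 ± 0.17 (adjusted p = 0.0853).

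Nuclear genes for subunits of complexes I to V and for cytochrome c, the partners of the mitochondrial products, were taken from a list of 79 genes. Of these 41 had a named probe set and 39 were tested. The list, called nuclear subunits below, also holds COX11 and COX17-2, which act in complex IV assembly and are not subunits. COX17-2 is among the genes called in WT_FR against WT_D, and COX11 among those called in phyA_FR against WT_FR. In WT_FR against WT_D 12 of 39 were higher and 0 lower, where 9.72% of all tested probe sets were higher and 12.6% lower, with a median of 0.27 over the list and -0.01 over all. In gun1gun5_FR against WT_FR 18 of 39 were lower and 0 higher, where 10.4% of all were lower and 9.8% higher, with a median of -0.42 over the list and 0.03 over all. In phyA_FR against WT_FR 7 of 39 were lower and 0 higher (5.65% and 6.97% of all; median -0.29 over the list, 0.02 over all), and with the 3′ to 5′ ratio as a covariate 0 passed. In gun1gun5_FR against gun1gun5_D 2 were higher and 1 lower (6.38% and 8.06% of all). In phyA_FR against phyA_D limma called 0 (0 at an unadjusted p under 0.05), as of all probe sets (0%), and in gun1gun5_D against WT_D 6 were lower and 0 higher (5.14% and 4.06% of all). Leaving out 1 array brought the wild-type count down to 6 (without WT_D replicate 1) or 7 (without WT_FR replicate 2). It brought the gun1gun5_FR count down to 5 or 10 without gun1gun5_FR replicate 1 or 2, and to 9 without WT_FR replicate 2. The phyA_FR count came down to 2 without WT_FR replicate 2 and to 3 without either gun1gun5_FR array.

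Cytochrome c and complex III, which hands electrons to it, held the largest nuclear differences. AT5G25450, placed in the complex III list, read 122 for phyA_FR and 145 for phyA_D, 81.4 and 94.4 for gun1gun5_FR, 105 and 176 for gun1gun5_D, 633 and 539 for WT_FR, and 177 and 143 for WT_D. The WT_FR arrays lay apart from all others, as for cox2. The gene differed by 1.78 ± 0.21 in WT_FR against WT_D (limma, adjusted p = 0.000311), by -2.53 ± 0.21 in gun1gun5_FR against WT_FR (adjusted p = 3.87e-05) and by -2.13 ± 0.25 in phyA_FR against WT_FR (adjusted p = 0.000578). CYTC-2, one of the cytochrome c genes, read 217 for phyA_FR and 282 for phyA_D, 179.9 and 168 for gun1gun5_FR, 135 and 199 for gun1gun5_D, 508 and 477 for WT_FR, and 263 and 288 for WT_D. It differed by 0.80 ± 0.16 in WT_FR against WT_D (adjusted p = 0.00625) and by -1.42 ± 0.16 in gun1gun5_FR against WT_FR (adjusted p = 0.000315). Of the complex III and cytochrome c list 4 of 13 were higher in WT_FR than in WT_D and 9 of 13 lower in gun1gun5_FR than in WT_FR, where 9.72% of all tested probe sets were higher in the first comparison and 10.4% lower in the second.

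In complex II, the succinate dehydrogenase that has no subunit among the 7 genes, SDH1-1 and SDH2-1 were higher in WT_FR than in WT_D, by 0.50 ± 0.14 (limma, adjusted p = 0.0235) and 0.47 ± 0.10 (adjusted p = 0.00969). All 3 tested complex II genes were lower in gun1gun5_FR than in WT_FR. The complex IV list holds nuclear partners of cox1 and cox2 and the assembly genes COX11 and COX17-2. Of it 2 of 9 were higher in WT_FR than in WT_D, the subunit gene COX5B-1 and COX17-2. A count of 1 of 9 was lower in gun1gun5_FR than in WT_FR, near the 10.4% of all probe sets that were lower there. In complex I, the partners of the nad products, 3 of 9 were higher in WT_FR and 2 of 9 lower in gun1gun5_FR. ATP synthase had 1 of 5 higher in WT_FR and 3 of 5 lower in gun1gun5_FR. Over all tested probe sets 9.72% were higher in WT_FR, and counts from so few genes are given as a description. The nuclear genes whose far-red effect differed between gun1gun5 and wild type were AT5G25450 (-2.34) and SDH2-1 (-0.98), 2 of 39, where 2.03% of all were lower in that test.

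**Figure D5:**
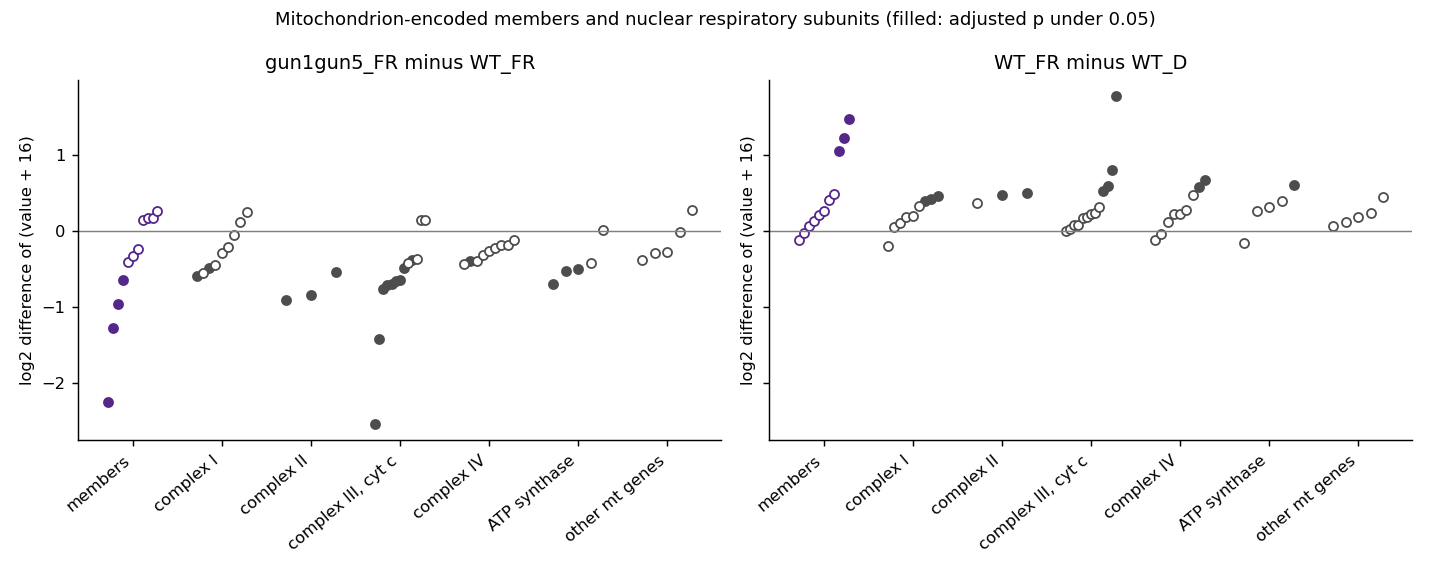
Log2 difference of (value + 16) for the 11 members, for nuclear subunits grouped by complex and for 5 other mitochondrial probe sets, in gun1gun5_FR minus WT_FR (left) and WT_FR minus WT_D (right); filled points have an adjusted p under 0.05. Complex III and cytochrome c hold the nuclear points farthest from 0, whereas none of the other mitochondrial (mt) points is filled.

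Genes for respiratory bypasses, of which 4 of 13 were tested, gave 1 higher and 0 lower in WT_FR against WT_D, and 1 higher (NDB1) and 1 lower (NDB2) in gun1gun5_FR against WT_FR. Over all tested probe sets 9.72% were higher and 12.6% lower in the first of these comparisons, and 9.8% higher and 10.4% lower in the second. The gene higher in wild type was NDB2, an NAD(P)H dehydrogenase of the inner membrane outside complex I, at 0.66 ± 0.12 (limma, adjusted p = 0.00395). It read 41.2 for phyA_FR and 54.6 for phyA_D, 22.8 and 26.1 for gun1gun5_FR, 33.8 and 34.2 for gun1gun5_D, 112 and 118 for WT_FR, and 70.9 and 62.5 for WT_D. Each gun1gun5 array lay below each wild-type array, and gun1gun5_FR minus WT_FR was -1.69 ± 0.12 (adjusted p = 1.82e-05). The mitochondrial stress list, with 5 of 12 tested, had 3 higher and 1 lower in WT_FR against WT_D and 3 lower in gun1gun5_FR against WT_FR, beside the same shares over all probe sets; NDB2 is in both lists. Its AT5G51440 read 41.0 for phyA_FR and 42.2 for phyA_D, 61.0 and 56.2 for gun1gun5_FR, 47.1 and 52.2 for gun1gun5_D, 340 and 354 for WT_FR, and 169 and 83.0 for WT_D. Both WT_FR arrays were highest, both WT_D arrays next and the mutant arrays lowest, as for cox2. It differed by 1.42 in WT_FR against WT_D (adjusted p = 0.00189) and by -2.28 in gun1gun5_FR against WT_FR (adjusted p = 0.000145). The list for mitochondrial RNA synthesis and processing had 4 of 22 genes tested, NMAT2, NMAT3, OTP43 and CCMH. The last acts in cytochrome c assembly, like ccb382, rather than on RNA. Of the 4, limma called 0 in each of the 11 comparisons, with 0 of 44 tests at an unadjusted p under 0.05. Over all 13647 tested probe sets, 699 to 4759 had such a p in a comparison. The brightest of them, NMAT2, a nuclear-encoded maturase for mitochondrial introns, read 82.8 for phyA_FR and 66.1 for phyA_D, 55.8 and 71.3 for gun1gun5_FR, 52.7 and 52.2 for gun1gun5_D, 63.2 and 61.8 for WT_FR, and 51.5 and 57.3 for WT_D. NMAT3, of the same family, lay between 26.7 and 39 over the 10 arrays. In neither did both WT_FR arrays exceed all others.

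Over 7368 tested probe sets of 1 gene outside the set, the patterns nearest to the mean of the members, each centred on its own mean, had Pearson correlations over 10 arrays of 0.96 for AT2G28400, AT5G12880 and PRN (a pirin), and 0.95 for AT1G61640 and AT1G15430. Without the WT_FR arrays these became 0.76, 0.86, 0.69, 0.86 and 0.60 (n = 8). For cox2 alone the nearest was ATHSP22.0, a small heat-shock protein, at 0.99 over all arrays and 0.94 without WT_FR. It read 49.8 for phyA_FR and 40.3 for phyA_D, 33.0 and 34.4 for gun1gun5_FR, 49.5 and 59.2 for gun1gun5_D, 324 and 297 for WT_FR, and 112 and 74.1 for WT_D. The nearest to cox1 was AT5G12880 (0.97) and to nad6 AT1G15430 (0.98), each with its 2 highest values in WT_FR. The nearest to nad4 was AT1G16810, at 0.92 over all arrays and 0.95 without WT_FR, and its highest value, 367, was in phyA_FR. These genes were picked as the nearest of 7368, so the coefficients are a description and carry no test.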

How the data were processed

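Biotin-labelled cRNA of 10 seedling samples was hybridised to ATH1 arrays, per the labels' protocols. The deposited values are linear probe-set intensities that the authors had scaled on each array; the summarisation software is not given in the sources used here. GEO's platform annotation gave the gene of each probe set, and RefSeq (TAIR10.1) the symbol, for 13436 of 13513 probe sets of 1 gene; 503 had several genes and 8730 were not listed with a gene. The mitochondrial names are those of that annotation, and no coordinates are given because it names no build.

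Each intensity was taken as log2(value + 16). Those with a mean above the 40th percentile, the 64 controls left out, were fitted with limma 3.58.1 in R 4.3.3, as 6 group means with a variance trend (4 residual and 6.30 prior degrees of freedom), which was tested on simulated data. P-values are two-sided and adjusted over 13647 probe sets within each comparison. Errors are SE unless given as SD.

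Members, comparisons and gene lists were chosen with earlier results of these data known. All members are named. From the lists, genes past the threshold in a described comparison were named, up to 4 by size; the nearest patterns by correlation were named too.

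Alternatives were pseudocounts of 1 and 64, quantile normalization, no filter or the 60th percentile, no trend, a replicate block, the 25S control or the 3′ to 5′ ratio as a covariate, only the compared groups, and leaving out each of 8 arrays. Same-numbered replicates deviated together weakly (correlations 0.0642 to 0.187 over 6 pairs of groups), and no label pairs them.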

Additional observations from a re-analysis of the deposited data

Results flagged for a closer look

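The far-red effect differed between genotypes, by a test of the difference itself, for 3 results. For cox2 the effect in gun1gun5 minus that in wild type was -1.84 log2 units (limma, adjusted p = 0.00481), with gun1gun5_FR below gun1gun5_D on both arrays and WT_FR above WT_D on both arrays. For nad6 the same difference was -1.22 (limma, adjusted p = 0.0125), a call kept in 15 of 17 alternatives. For cox2 the effect in phyA minus that in wild type was -1.47 (limma, adjusted p = 0.0451), from 1 array for each phyA group. That call was kept in only 7 of 18 alternatives. In all 3 the wild-type effect includes the change of medium in WT_D, whose part was not tested.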

How the results depend on the processing

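Of 121 member differences, none of the 14 that passed changed sign under any alternative, whereas 38 of the 107 that did not pass changed sign under at least 1, all of them 0.36 or smaller in size. In WT_FR against WT_D the count of 3 members stayed within 1.5 times under every alternative. Members whose far-red effect differed between gun1gun5 and wild type numbered 1 in place of 2 with no filter or a filter at the 60th percentile (which tests 4 members), and 1 to 3 without 1 array. For phyA against wild type the count of 1 became 0 with a pseudocount of 1, no filter, no variance trend, the 25S covariate or only the compared groups, 2 with a pseudocount of 64, and 0 to 1 without 1 array. For gun1gun5_FR against WT_FR the count of 4 became 2 at the 60th percentile and 3 to 4 without 1 array. phyA_FR against WT_FR gave 0 with the 3′ to 5′ covariate and 2 with only the compared groups, and 2 to 5 without 1 array; gun1gun5_D and phyA_D against WT_D each gave 0 to 1. Nuclear subunits numbered 6 to 13 in WT_FR against WT_D, 5 to 20 in gun1gun5_FR against WT_FR and 2 to 8 in phyA_FR against WT_FR without 1 array; the last count was 0 with the 3′ to 5′ covariate and 2 with only the compared groups. With the replicate number as a block, 1 member (nad4, 0.55, adjusted p = 0.0262) passed in phyA_FR against gun1gun5_FR, where 0 had, and 1 with only the compared groups (adjusted p = 0.0336); the block changed no other count of members by over 1.5 times. phyA_FR against phyA_D could not be fitted alone, since its 2 arrays leave no residual degrees of freedom.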

Other observations

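Probe sets of the mitochondrial genome that stayed below the filter were not tested. Among them nad5 257337_at read 16.4 for phyA_FR and 17.1 for phyA_D, 16.2 and 25.7 for gun1gun5_FR, 6.1 and 17.0 for gun1gun5_D, 33.6 and 32.5 for WT_FR, and 17.1 and 16.2 for WT_D. Both WT_FR arrays were thus the highest, near the level of the dimmest tested members, whereas the other nad5 probe set did not set WT_FR apart. matR, which encodes a maturase for mitochondrial introns, read 46.3 on WT_FR replicate 1 and between 1.6 and 11.2 on the 9 other arrays, so its high value rests on 1 array.

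A pair of probe sets match nad1 together with a nuclear gene and were left out of the set. The one shared with AT2G07701 lay between 17.6 and 34.3 over the 10 arrays and the one shared with AT2G07702 between 18.4 and 26.5. In neither did both WT_FR arrays exceed all others.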
